A study of Mus musculus with 114 samples.

Results

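Complex I of the respiratory chain was examined in isolated mouse adipocytes through every gene whose symbol begins with Nduf, which gave 45 of the 29132 genes in the expression values. They were 36 nuclear genes for subunits of complex I, 7 genes for assembly factors (symbols beginning with Ndufaf) and 2 genes, Ndufa4 and Ndufa4l2, whose names predate their placement outside complex I. The adipocytes came from the perigonadal fat of male C57BL/6J mice that ate chow (CD) or high fat food (HFD) from 6 weeks of age. The feeding lasted 8, 20 or 34 weeks. Each diet had 6 mice at the earlier times, and at 34 weeks there were 8 mice on CD and 6 on HFD. RNA was taken from the cells that float after collagenase digestion, 1 library set per mouse, so a CD mouse at 34 weeks was also an older mouse than a CD mouse at 8 weeks. Expression was given in CPM, read counts scaled to a total of 1000000 per mouse, and differences are on the log2(CPM + 1) scale.

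Complex I, NADH:ubiquinone oxidoreductase, takes electrons from NADH, hands them to ubiquinone and pumps protons across the inner mitochondrial membrane. Its core subunits carry the flavin, the iron-sulfur clusters and the quinone site, and accessory subunits surround them in an arm that reaches into the matrix and in the proximal and distal parts of the membrane arm. Assembly factors help to build the complex and are absent from the finished enzyme. The mitochondrially encoded subunits and Ndufb1 were not analysed here.

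Between 9275711 and 15480388 reads fell on genes in each mouse (median 12522298), and 1 read equalled 0.0646 to 0.108 CPM. The 8 adipocyte markers summed to between 15915 and 48286 CPM per mouse, while 5 T cell markers reached at most 3.23 CPM and 4 B cell markers at most 5.82 CPM in total. Fabp4 weighed most in the adipocyte sum, with group medians of 12185 to 16893 CPM. At 8 weeks Lep had a median of 723.5 CPM in CD and 3799 CPM in HFD mice, while the median of each other adipocyte marker was lower in HFD mice. The 12 macrophage markers had group medians of 606.5, 1388 and 4051 summed CPM in CD mice and 1856, 9302 and 13697 summed CPM in HFD mice at 8, 20 and 34 weeks. In bulk RNA, fewer adipocytes in the sample and less RNA of a gene per adipocyte cannot be told apart. The median log2 fold change of the 10343 genes tested was 0.11, 0.14 and 0.07 in HFD against CD mice at 8, 20 and 34 weeks, whereas it was 0.01, -0.07 and -0.01 after TMM scaling, and changes of complex I genes are given beside this shift.

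The 44 members tested, which are all but Ndufa4l2, were expressed at different levels when read per kilobase of annotated exon. Per kilobase, the mean over the 38 mice of the complex I subunits ran from 6.02 CPM for Ndufb2 to 180.2 CPM for Ndufb9, a distal membrane arm subunit. Of the 7 assembly factors 6 lay between 3.90 and 10.3 CPM per kilobase, and Ndufaf1 reached 16.3 CPM per kilobase. Assembly factors stood mostly below the subunits, of which Ndufb2, Ndufb4, Ndufb7 and Ndufab1 lay between 6.02 and 16.8 CPM per kilobase. The exon lengths are unions of all annotated exons, which makes these levels low for genes with long rare exons.

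The mean log2(CPM + 1) over the 36 subunits was 6.33 ± 0.09 (SD, n = 6) in CD and 6.42 ± 0.09 (n = 6) in HFD mice at 8 weeks. At 20 weeks it was 6.57 ± 0.16 (n = 6) in CD and 6.23 ± 0.09 (n = 6) in HFD mice, and 5 of 6 HFD mice lay below all CD mice. At 34 weeks it was 6.87 ± 0.35 (n = 8) in CD and 6.43 ± 0.36 (n = 6) in HFD mice, where 2 HFD mice lay below all CD mice and 4 CD mice lay above all HFD mice. The mice at 34 weeks were spread over a wider range than the younger mice on both diets. The plot of means per mouse gives the same values for the assembly factors.

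**Figure D1:**
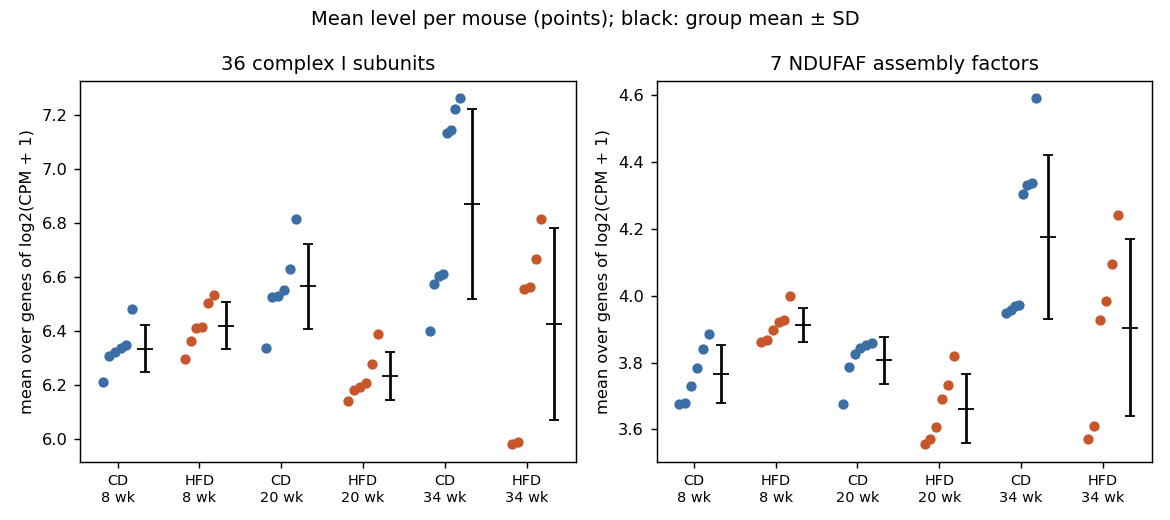
Mean log2(CPM + 1) over the 36 complex I subunits (left) and the 7 assembly factors (right) in each mouse, by diet and weeks on diet, with 1 point per mouse (blue CD, orange HFD) and black bars for the group mean ± SD. CD means of the subunits increase from 6.33 at 8 weeks to 6.87 at 34 weeks, while the HFD means are 6.42, 6.23 and 6.43.

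At 8 weeks few complex I genes passed the test when all 6 groups were fitted together. In HFD mice 3 subunits were higher, 8.33% of the 36 against 29.8% of all genes tested, and none was lower (0 also at an unadjusted p under 0.05 and with edgeR or DESeq2) against 15.1% of all genes. The median log2 fold change of the 36 subunits was 0.05, below the 0.11 of all genes, and it was -0.06 after TMM scaling, where 1 subunit was higher. When only the mice at 8 weeks were fitted, 11 subunits were higher and 3 lower, and with array weights 12 were higher and 3 lower. The share of all genes called was counted in the main limma fit of all 6 groups, and not in the alternative fits given here and below. Ndufa11, a proximal membrane arm subunit, had 30.2, 35.6 and 40.2 CPM (lowest, median and highest) in CD and 40.1, 53.7 and 63.6 CPM in HFD mice. Its log2 fold change was 0.55 ± 0.14 (SE, adjusted p = 0.00196), and 5 of 6 HFD mice exceeded every CD mouse.

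Ndufb6, of the distal membrane arm, had 49.0, 54.8 and 69.6 CPM in CD and 61.2, 77.8 and 92.8 CPM in HFD mice, a log2 fold change of 0.43 ± 0.14 (adjusted p = 0.0149). Ndufa8, another proximal subunit, had 57.6, 64.0 and 68.4 CPM in CD and 65.7, 83.8 and 96.0 CPM in HFD mice, a log2 fold change of 0.37 ± 0.13 (adjusted p = 0.0230). For both genes the groups overlapped, with 4 and 5 of 6 HFD mice above all CD mice. Members of the matrix arm had a median log2 fold change of 0.03 and the core subunits of -0.04, and none of either passed the test. The 9 proximal and 10 distal membrane arm subunits had medians of 0.14 and 0.14.

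The members' promoters were read for short motifs of factors known for nuclear respiratory genes, since most subunits moved the same way in the later comparisons. RefSeq promoters of GRCm38.p6, from 250 bases before to 50 bases after an annotated start of the gene, were found for 39 of the 45 members. This start can lie downstream of the first annotated base of the gene, as for Ndufs7 and Ndufa3. On either strand, the NRF1 letters GCATGCGC were in 3 of 32 subunit promoters (9.38%) and 2 of 6 assembly factor promoters (33.3%), against 3.05% of all 27025 genes with a promoter. The ETS letters CCGGAAG were in 12.5% of the subunit promoters against 9.93% of all, the ERR letters AAGGTCA in 9.38% against 5.38%, and the YY1 letters AAGATGG in 21.9% against 7.28%. The CCAAT letters were in 31.2% against 41.1% and the TATAAA letters in 12.5% against 15.7%. The promoters of all genes include those of many genes without a protein.

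Ndufa11, the subunit with the largest rise in HFD mice at 8 weeks, is shown for its NRF1 letters (in capitals, 60 bases before the start), as the 250 bases before the start on the plus strand, chr17:56717512-56717761.
Ndufa11: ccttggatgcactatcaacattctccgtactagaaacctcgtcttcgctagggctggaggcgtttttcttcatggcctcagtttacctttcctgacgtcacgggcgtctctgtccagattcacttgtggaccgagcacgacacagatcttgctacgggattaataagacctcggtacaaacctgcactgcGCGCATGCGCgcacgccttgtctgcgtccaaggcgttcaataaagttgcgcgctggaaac
The other 4 members with these letters are shown by their first match and its flanks.
Ndufa6 (chr15:82354358-82354384, minus strand): ccgcggtagaGCATGCGCattgcagag
Ndufa8 (chr2:36049330-36049356, minus strand): cgctggagacGCATGCGCagatggtac
Ndufaf4 (chr4:24897960-24897986, plus strand): ccagatgtctGCGCATGCGCctgtgcg
Ndufaf5 (chr2:140170652-140170678, plus strand): agtcccgttgGCGCATGCGCctaatag
Of these 5 members Ndufa11 and Ndufa8 were higher in HFD mice at 8 weeks, while Ndufa6 (log2 fold change -0.06 ± 0.13), Ndufaf4 (0.21 ± 0.13) and Ndufaf5 (0.25 ± 0.14) did not pass. A match of letters is a description and not a binding site.

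The YY1 letters stood on the strand of the gene in all 7 subunits that had them, with their first base 22 to 38 bases after the start used for the promoter. They are shown in capitals with their flanks.
Ndufa3 (chr7:3617385-3617411, plus strand): cgccaagaacAAGATGGccgggagtaa
Ndufa9 (chr6:126849099-126849125, minus strand): attgtgggagAAGATGGcggccgccgt
Ndufb8 (chr19:44555393-44555414, minus strand): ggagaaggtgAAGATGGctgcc
Ndufc1 (chr3:51408917-51408943, minus strand): cctgcggaacAAGATGGcgccgtccgt
Ndufs4 (chr13:114388045-114388069, minus strand): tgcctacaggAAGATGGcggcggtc
Ndufs6 (chr13:73328433-73328459, minus strand): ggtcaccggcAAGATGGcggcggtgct
Ndufs7 (chr10:80249463-80249489, plus strand): ggccgaggccAAGATGGcggcgctggc
On the gene's strand and from 20 bases after the start, the letters were in 21.9% of the subunit promoters and in 0.892% of all. This limit was set after these positions were seen and keeps all 7 of them, so that this contrast is no test. The letters hold an ATG, so that they can also be the start of a reading frame.

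At 20 weeks complex I genes were lower in HFD than in CD mice. Rises and falls in a diet comparison are differences of HFD from CD mice at that time, and not changes over time. Of the 36 subunits 20 were lower (55.6%, against 18.7% of all genes tested) and none was higher, at the adjusted or an unadjusted p under 0.05 with limma and at the adjusted p with edgeR or DESeq2, against 38.3% of all genes. The median log2 fold change of the subunits was -0.36, and it was -0.57 after TMM scaling. The groups did not overlap in 11 subunits (30.6%, against 11.1% of all genes in the same direction). These were Ndufs3, Ndufs7, Ndufv2, Ndufa2, Ndufa5, Ndufa10, Ndufb5, Ndufb8, Ndufb9, Ndufb10 and Ndufb11, named after their values were seen, and all but Ndufa2 passed the test. By place in the complex, 6 of 7 core subunits, 6 of 9 matrix arm, 3 of 9 proximal and 5 of 10 distal membrane arm subunits were lower, and Ndufab1 did not pass.

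Ndufb9 and Ndufa5 were among the subunits with the largest falls at 20 weeks. Ndufb9 had 176.2, 220.1 and 293.4 CPM in CD and 122.5, 136.6 and 165.2 CPM in HFD mice, and its log2 value fell by 0.69 ± 0.16 (adjusted p = 0.000637). Ndufa5, an accessory subunit of the matrix arm, had 44.6, 52.6 and 65.3 CPM in CD and 31.5, 34.6 and 42.1 CPM in HFD mice, and it fell by 0.59 ± 0.19 (adjusted p = 0.00910). The diets did not overlap for either gene.

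Core subunits fell at 20 weeks as well. Ndufs7, which carries the last iron-sulfur cluster before ubiquinone, fell by 0.49 ± 0.15 (adjusted p = 0.00629), from a median of 92.0 CPM in CD to 65.3 CPM in HFD mice. Ndufv1, the subunit that binds NADH and the flavin, fell by 0.44 ± 0.14 (adjusted p = 0.00629), from a median of 213.1 to 152.3 CPM. Ndufs3, which lines the matrix arm, fell by 0.43 ± 0.14 (adjusted p = 0.0106). All 6 HFD mice lay below all CD mice for Ndufs7 and Ndufs3, and 5 of 6 for Ndufv1. Ndufv2, an iron-sulfur subunit next to Ndufv1, fell by 0.40 ± 0.13 (adjusted p = 0.0113) without overlap. Ndufs1, the largest core subunit, fell by 0.29 ± 0.13 (adjusted p = 0.0492). Ndufs8, an iron-sulfur subunit, had 51.6, 57.7 and 69.5 CPM in CD and 47.5, 49.8 and 54.9 CPM in HFD mice and did not pass (log2 fold change -0.21 ± 0.12, adjusted p = 0.134).

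The subunits that were higher in HFD mice at 8 weeks did not pass the test at 20 weeks. Ndufa11 had 37.9, 41.4 and 47.9 CPM in CD and 40.1, 43.0 and 46.2 CPM in HFD mice (log2 fold change 0.05 ± 0.14, adjusted p = 0.767). Ndufa8 and Ndufb6 had log2 fold changes of -0.01 ± 0.13 and -0.12 ± 0.14. When only the mice of the same time were fitted, 28 subunits were lower at 20 weeks. The macrophage markers were 5366 to 12831 summed CPM in HFD and 921.6 to 3543 in CD mice at this time, and the adipocyte markers 23917 to 32724 in HFD and 29202 to 40965 in CD mice. With the mean log2 level of the 12 macrophage markers as a covariate, 0 of 36 subunits were lower and their median log2 fold change was 0.09. That covariate moves with the diet, and the parts of the 2 cannot be told apart.

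**Figure D2:**
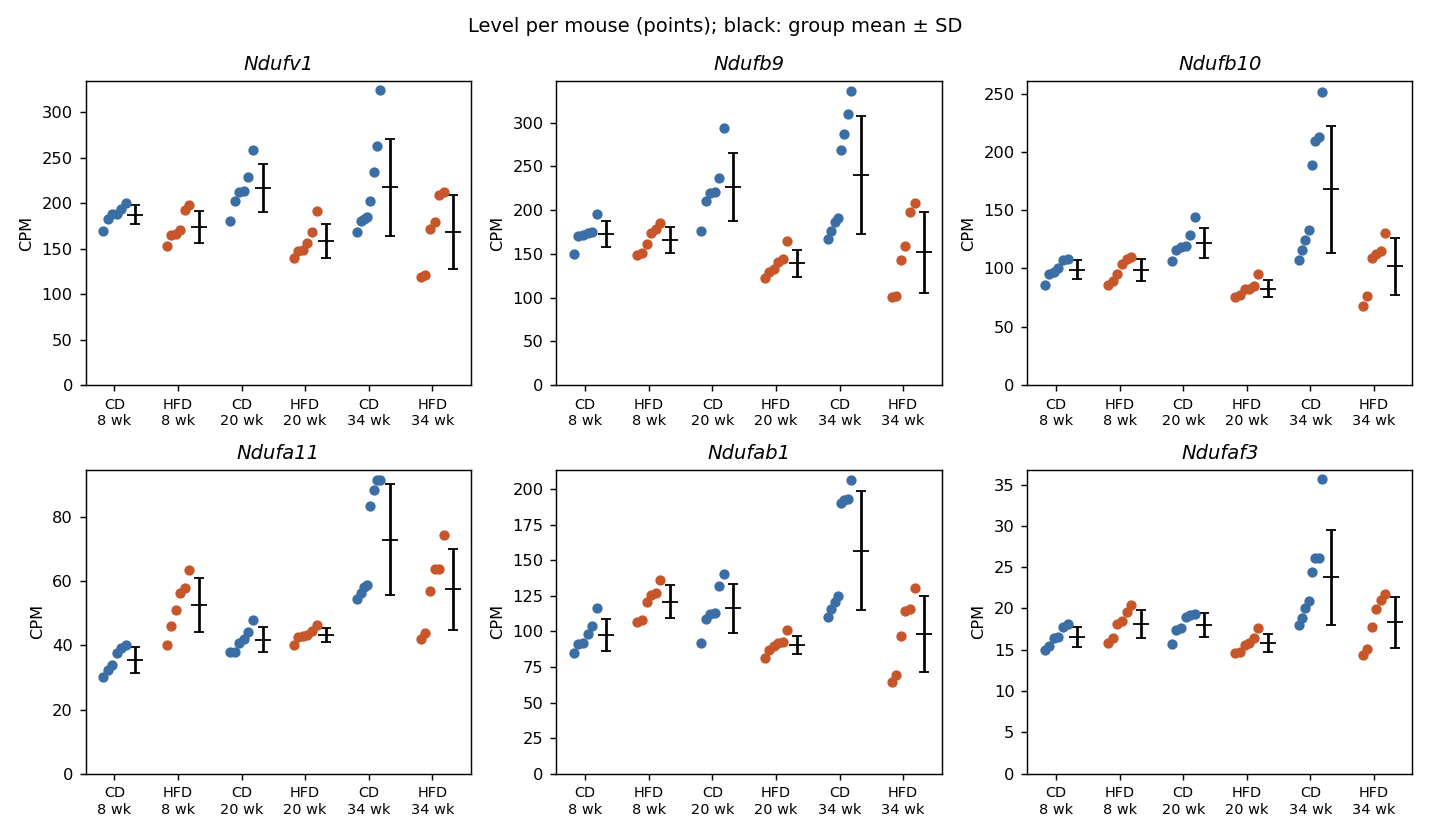
CPM of Ndufv1, Ndufb9, Ndufb10, Ndufa11, Ndufab1 and Ndufaf3 in each mouse by diet and weeks on diet, with 1 point per mouse (blue CD, orange HFD) and black bars for the group mean ± SD. Ndufb9 and Ndufb10 do not overlap between diets at 20 weeks, and Ndufa11 is higher in HFD mice at 8 weeks only.

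At 34 weeks 34 of the 36 subunits were lower in HFD mice (94.4%, against 15.7% of all genes tested) and none was higher, at the adjusted or an unadjusted p under 0.05 and with edgeR or DESeq2, against 27.5% of all genes. The median log2 fold change was -0.44, and Ndufs8 and Ndufa1 were the subunits that did not pass. Of the 20 subunits lower at 20 weeks, 19 were also lower at 34 weeks. No subunit separated the diets without overlap, against 0.986% of all genes in this direction, since the mice of each diet were widely spread. The 4 CD mice with the highest subunit means lay at 7.13 to 7.26 and the other 4 at 6.61 or less, and 2 HFD mice lay at 5.98 and 5.99 while the other 4 lay at 6.56 to 6.81. Adipocyte markers summed to 38149 to 48286 CPM in the 4 upper CD mice and to 27404 to 36656 CPM in the 4 lower ones. They summed to 15915 and 18589 CPM in the 2 lower HFD mice and to 20977 to 38899 CPM in the others. Macrophage markers overlapped, with 955.2 to 8041 CPM in the upper and 3675 to 11535 CPM in the lower CD mice. In HFD mice they summed to 14808 and 16401 CPM in the 2 lower and to 5744 to 17197 CPM in the others. The mice were divided at a gap in these same subunit means, chosen from these data. The parts hold 2 to 4 mice, and the differences in their marker sums were not tested.

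The count at 34 weeks changed with the fit, and the median log2 fold change with some of the fits. It was 5 of 36 when only the mice at 34 weeks were fitted (median -0.44), 9 with array weights (median -0.24) and 0 (median -0.17) with the macrophage markers as a covariate, which were 5744 to 17197 summed CPM in HFD and 955.2 to 11535 in CD mice. Without HFD mouse 2 it was 16, and without HFD mouse 3 it was also 16. These are the 2 HFD mice with the lowest subunit means. The SE and adjusted p of each gene rest on a spread shared by all 6 groups. The SD of the subunit mean was 0.35 in CD and 0.36 in HFD mice at 34 weeks, but 0.09 on both diets at 8 weeks. The SE and adjusted p given for comparisons with mice at 34 weeks can therefore be too small.

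Ndufb10, a distal membrane arm subunit, had the largest fall at 34 weeks. It had 107.5, 161.1 and 251.6 CPM in CD and 67.9, 111.0 and 130.2 CPM in HFD mice, and fell by 0.69 ± 0.15 (adjusted p = 0.000620). Ndufa12, a late addition to the matrix arm, had 55.3, 84.2 and 118.9 CPM in CD and 37.5, 56.2 and 65.0 CPM in HFD mice, and fell by 0.67 ± 0.14 (adjusted p = 0.000487). For both genes the 6 HFD mice lay below the CD mean, and 2 lay below all CD mice. Ndufb9 fell by 0.67 ± 0.15 (adjusted p = 0.00101) and Ndufab1, the mitochondrial acyl carrier protein that is also a complex I subunit, by 0.67 ± 0.15 (adjusted p = 0.000642). Ndufab1 had 110.0, 157.7 and 206.6 CPM in CD and 64.7, 105.3 and 130.4 CPM in HFD mice. For Ndufb9, 4 of 6 HFD mice were below all CD mice.

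Among the core subunits at 34 weeks, Ndufv2 fell by 0.47 ± 0.13 (adjusted p = 0.00334), Ndufs3 by 0.45 ± 0.13 (adjusted p = 0.00688) and Ndufs7 by 0.43 ± 0.14 (adjusted p = 0.0135). Ndufv1 fell by 0.37 ± 0.13 (adjusted p = 0.0191) and Ndufs1 by 0.31 ± 0.12 (adjusted p = 0.0309). Their falls lay within a narrow range, and Ndufs8 was again smaller (-0.20 ± 0.11, adjusted p = 0.143). All 9 matrix arm, 8 of 9 proximal and all 10 distal membrane arm subunits were lower. Ndufa11, Ndufa8 and Ndufb6, the subunits higher in HFD mice at 8 weeks, were lower in HFD than in CD mice at 34 weeks. They were lower by 0.33 ± 0.13 (adjusted p = 0.0355), 0.37 ± 0.12 (adjusted p = 0.0157) and 0.45 ± 0.13 (adjusted p = 0.00762). Within HFD mice no subunit passed as lower at 34 against 8 weeks. The median log2 fold change over that time was -0.01 in HFD and 0.55 in CD mice.

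**Figure D3:**
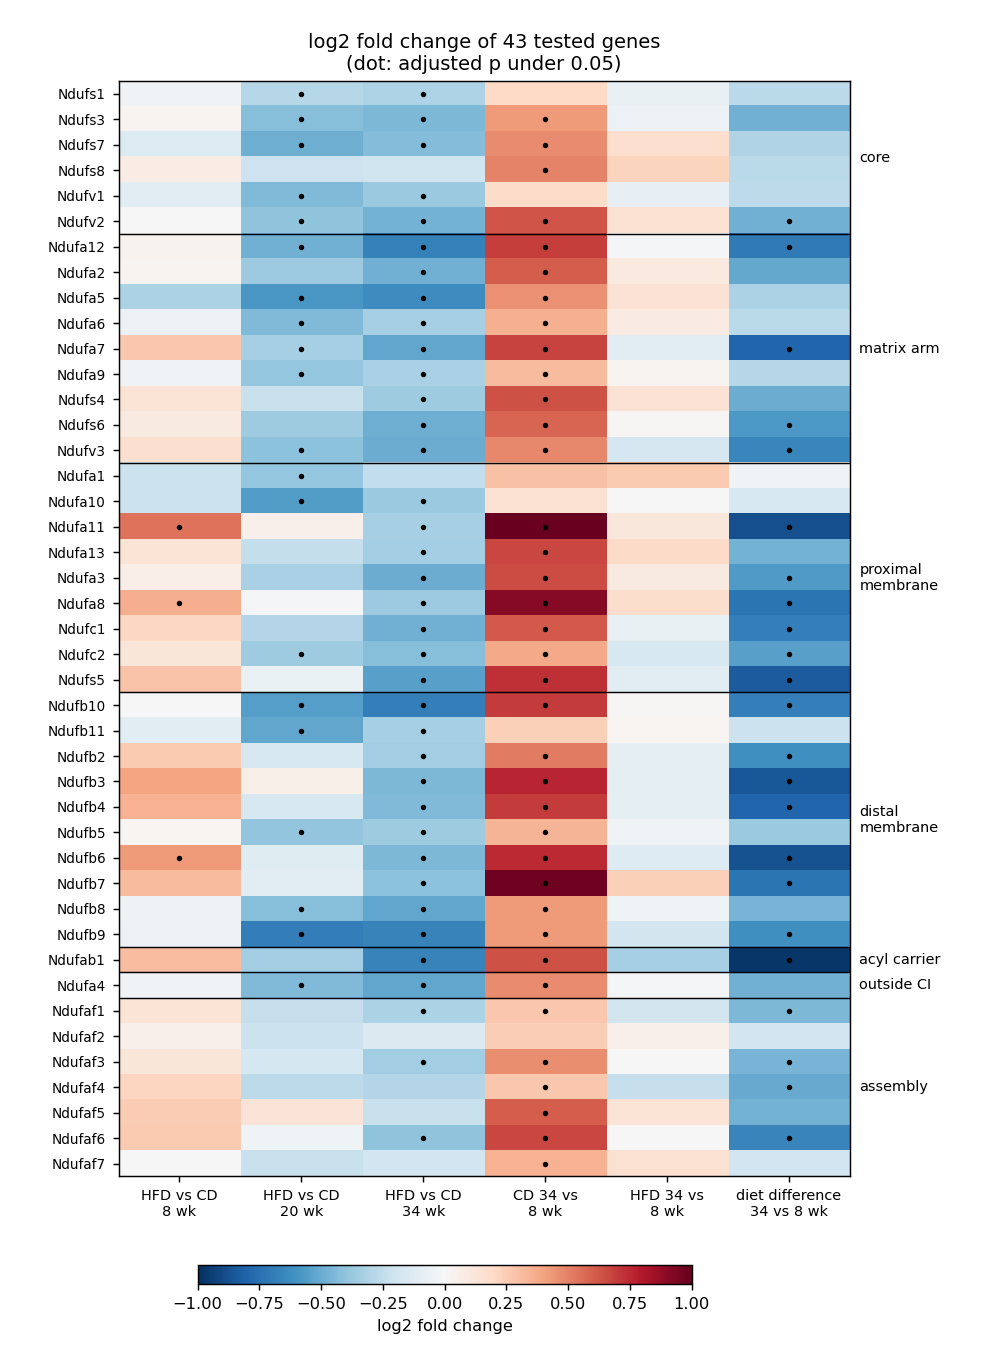
Log2 fold changes of 43 tested members (rows, by place in complex I) in 6 comparisons (columns), in colour from -1 (blue) to 1 (red), with a dot where the adjusted p is under 0.05. The columns for HFD against CD hold 3, 20 and 37 dots at 8, 20 and 34 weeks, and the column for HFD mice at 34 against 8 weeks has no dot.

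The CD mice changed with time on the diet. The comparisons over time share their mice with the diet comparisons, and age and time on the diet cannot be told apart. At 34 against 8 weeks 30 of 36 subunits were higher (83.3%, against 40.1% of all genes tested) and none was lower, at the adjusted or an unadjusted p under 0.05 and with edgeR or DESeq2, against 24.6% of all genes. The median log2 fold change was 0.55, against 0.13 for all genes, and 11 subunits did not overlap between the times (30.6%, against 14.6% of all genes). Ndufa11 rose by 0.99 ± 0.13 (adjusted p = 1.28e-07), to 54.4, 71.1 and 91.6 CPM at 34 weeks, and Ndufa8 by 0.91 ± 0.12 (adjusted p = 2.51e-07), to 91.3, 119.1 and 159.3 CPM. Every CD mouse at 34 weeks exceeded every CD mouse at 8 weeks in both genes. With the macrophage covariate all 36 subunits were higher, as were 39 of 40 nuclear genes for complexes II to V. The share of all genes higher in that fit was not counted.

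The core subunits were divided in this comparison. Ndufv2, Ndufs8, Ndufs7 and Ndufs3 rose by 0.63 ± 0.13, 0.49 ± 0.11, 0.47 ± 0.14 and 0.42 ± 0.13 (adjusted p from 6.73e-05 for Ndufv2 to 0.00600 for Ndufs3). Ndufs1 and Ndufv1 did not pass, with log2 fold changes of 0.20 ± 0.12 and 0.18 ± 0.13. Ndufs8 thus rose in CD mice although its diet difference did not pass with limma at any time. At 20 against 8 weeks no subunit passed in CD mice with limma, edgeR or DESeq2 (4 were higher at an unadjusted p under 0.05), against 1.70% of all genes higher, and the median log2 fold change was 0.23. When only the mice at 8 and 20 weeks were fitted, 12 subunits were higher.

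In HFD mice few subunits passed the test over time when all 6 groups were fitted together. At 34 against 8 weeks none was higher or lower with limma, edgeR or DESeq2 (1 was lower at an unadjusted p under 0.05 and 1 after TMM scaling), although 31.7% of all genes were higher and 20.8% lower, and the median log2 fold change was -0.01. At 20 against 8 weeks the acyl carrier Ndufab1 was the only subunit that passed (2.78% of the list, against 15.3% of all genes lower). It had 107.0, 123.3 and 136.4 CPM at 8 weeks and 81.6, 90.7 and 101.2 CPM at 20 weeks, without overlap, and fell by 0.41 ± 0.16 (adjusted p = 0.0385). The median of the subunits was -0.19, and 18 of 36 were lower when only the HFD and CD mice at 8 and 20 weeks were fitted.

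The change of the diet difference over time was tested with interaction terms, which share all groups with the comparisons above. Between 8 and 34 weeks the diet difference became more negative in 19 subunits (52.8%, against 15.9% of all genes) and in 4 of 7 assembly factors. The count of assembly factors was 1 after TMM scaling, 2 with edgeR and 2 when only the mice at 8 and 34 weeks were fitted. The 5 members with the smallest adjusted p were Ndufa11 (-0.88 ± 0.19, adjusted p = 0.000812), Ndufab1 (-0.98 ± 0.21, adjusted p = 0.000998), Ndufa7 (-0.79 ± 0.17, adjusted p = 0.00103), Ndufb6 (-0.88 ± 0.20, adjusted p = 0.00121) and Ndufa8 (-0.73 ± 0.18, adjusted p = 0.00277). These are accessory subunits, and of the 7 core subunits Ndufv2 passed (-0.48 ± 0.18, adjusted p = 0.0477). With the macrophage covariate 24 subunits passed.

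Between 8 and 20 weeks Ndufa7, an accessory subunit of the matrix arm, was the only member whose diet difference passed when all 6 groups were fitted with limma (-0.60 ± 0.18, adjusted p = 0.0460). It is 2.78% of the subunits, against 1.67% of all genes. Ndufa7 had 90.7, 96.5 and 112.7 CPM in CD and 110.4, 120.7 and 123.5 CPM in HFD mice at 8 weeks, and 108.9, 118.8 and 136.3 CPM in CD and 91.3, 92.5 and 112.7 CPM in HFD mice at 20 weeks. At 8 weeks 5 of 6 HFD mice lay above all CD mice, and at 20 weeks 5 of 6 lay below all CD mice. When only the mice at 8 and 20 weeks were fitted, 30 of 36 subunits passed, and 32 passed with array weights. Between 20 and 34 weeks no member passed with limma, edgeR or DESeq2 (3 subunits and 1 assembly factor at an unadjusted p under 0.05), against 6.31% of all genes.

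Ndufa4 was first described as a complex I subunit and is now placed in complex IV. It had 214.2, 275.7 and 330.6 CPM in CD and 187.6, 200.2 and 224.0 CPM in HFD mice at 20 weeks, and 234.3, 354.7 and 486.3 CPM in CD and 165.8, 257.4 and 322.5 CPM in HFD mice at 34 weeks. It fell by 0.44 ± 0.16 (adjusted p = 0.0186) and by 0.52 ± 0.15 (adjusted p = 0.00554) at these times, and rose by 0.47 ± 0.15 (adjusted p = 0.00643) in CD mice from 8 to 34 weeks. At 8 weeks its log2 fold change was -0.04 ± 0.16. Its changes had the direction of those of the complex I subunits at 20 and 34 weeks. Ndufa4l2, its hypoxia-inducible paralog, did not pass the filter on low values, with medians of 0.305, 0.444 and 0.449 CPM in CD and 1.21, 1.48 and 1.53 CPM in HFD mice at 8, 20 and 34 weeks. The diets overlapped at each time, and no mouse had more than 42 reads.

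The assembly factors were expressed at low to moderate levels. At 8 and 20 weeks none of the 7 passed with limma in either direction (1 higher at 8 weeks and 1 lower at 20 weeks at an unadjusted p under 0.05). With edgeR or DESeq2 5 were lower at 20 weeks, as after TMM scaling. Their median log2 fold change was 0.14 at 8, -0.21 at 20 and -0.29 at 34 weeks. At 34 weeks 3 of 7 were lower (42.9%, against 15.7% of all genes), 5 with edgeR or DESeq2 and 0 when only the mice at 34 weeks were fitted.

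Ndufaf6, needed for an early step in which membrane and matrix parts join, had 5.44, 7.40 and 9.74 CPM in CD and 3.77, 5.18 and 7.37 CPM in HFD mice at 34 weeks, and fell by 0.40 ± 0.12 (adjusted p = 0.00714). Ndufaf3, which acts with Ndufaf4 on the quinone-binding part, had 18.1, 22.7 and 35.7 CPM in CD and 14.4, 18.9 and 21.8 CPM in HFD mice, and fell by 0.34 ± 0.11 (adjusted p = 0.00962). Ndufaf1, a member of the intermediate assembly complex of the inner membrane, had 24.0, 27.6 and 39.3 CPM in CD and 17.9, 22.1 and 29.6 CPM in HFD mice, and fell by 0.31 ± 0.11 (adjusted p = 0.0163). In each gene the diets overlapped, with 3 or 4 of 6 HFD mice below all CD mice.

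The other 4 assembly factors did not pass with limma at any diet comparison, although the counts with edgeR, DESeq2 or TMM scaling include at least 2 of them at 34 weeks. At 34 weeks Ndufaf4 had 12.5, 16.8 and 26.1 CPM in CD and 12.1, 13.9 and 19.4 CPM in HFD mice (log2 fold change -0.29 ± 0.12, adjusted p = 0.0518). Ndufaf5, an enzyme that modifies Ndufs7, had 8.80, 11.3 and 14.8 CPM in CD and 6.25, 11.6 and 13.4 CPM in HFD mice. Ndufaf7, a methyltransferase needed for assembly, had 23.1, 28.3 and 35.3 CPM in CD and 18.5, 24.8 and 32.4 CPM in HFD mice. These groups overlapped over most of their range. Ndufaf2, a paralog of Ndufa12 that occupies its place during assembly, had 10.03, 14.52 and 18.03 CPM in CD and 9.11, 12.9 and 18.3 CPM in HFD mice (log2 fold change -0.14 ± 0.12). Ndufa12 itself fell at that time, and the difference between the 2 genes was not tested.

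With time, 6 of 7 assembly factors rose in CD mice from 8 to 34 weeks (85.7%, against 40.1% of all genes), 3 of them after TMM scaling. Ndufaf6 rose by 0.67 ± 0.12 (adjusted p = 1.54e-05) and Ndufaf5 by 0.60 ± 0.13 (adjusted p = 0.000232), each without overlap, while Ndufaf2 did not pass (0.24 ± 0.12, adjusted p = 0.0767). In HFD mice from 8 to 20 weeks, Ndufaf4 fell by 0.48 ± 0.13 (adjusted p = 0.00519), from 15.1, 16.8 and 19.1 CPM to 9.89, 11.6 and 14.3 CPM. Ndufaf1 fell by 0.35 ± 0.11 (adjusted p = 0.0166) in the same comparison. All 6 HFD mice at 20 weeks lay below all HFD mice at 8 weeks in both genes. These 2 are 28.6% of the list, against 15.3% of all genes.

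Other genes of complex I assembly and of the respiratory chain were counted from fixed lists. Of 9 further assembly factors, 4 were higher at 8 weeks (44.4%, against 29.8% of all genes). At 20 weeks 4 were lower (44.4%, against 18.7%) and 1 higher (11.1%, against 38.3%), and at 34 weeks 6 were lower (66.7%, against 15.7%). The count at 8 weeks was 1 with edgeR, DESeq2 or TMM scaling, and that at 34 weeks was 2 when only the mice of that time were fitted. With the macrophage covariate 0 were lower at 20 and at 34 weeks. Tmem126b, which works with Ndufaf1, had 26.0, 26.9 and 29.4 CPM in CD and 32.6, 41.4 and 49.0 CPM in HFD mice at 8 weeks, a rise of 0.58 ± 0.11 (adjusted p = 0.000145) without overlap. Acad9, of the same intermediate complex, was higher by 0.34 ± 0.11 (adjusted p = 0.0125) at 8 weeks. Both act at the step in which membrane arm intermediates form. Tmem186 fell by 0.40 ± 0.13 (adjusted p = 0.00826) at 20 weeks and by 0.63 ± 0.12 (adjusted p = 0.000166) at 34 weeks. Aifm1, a flavoprotein of the intermembrane space, fell by 0.62 ± 0.14 (adjusted p = 0.000420) at 20 weeks, and Tmem70 by 0.45 ± 0.10 (adjusted p = 0.00104) at 34 weeks. In CD mice at 34 against 8 weeks 4 of the 9 were higher (44.4%, near the 40.1% of all genes), and 2 with edgeR, DESeq2 or TMM scaling. The largest of these rises were those of Timmdc1 (0.52 ± 0.12, adjusted p = 0.000277) and Tmem126b (0.46 ± 0.11, adjusted p = 0.000322).

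Of the nuclear genes for complexes II to V, 19 of 40 were lower at 20 weeks (47.5%, against 18.7% of all genes), 28 of 40 were lower at 34 weeks (70.0%, against 15.7%) and 34 of 40 were higher in CD mice at 34 against 8 weeks (85.0%, against 40.1%). At 20 weeks the count was 36 with edgeR and 0 with the macrophage covariate, and at 34 weeks it was 3 when only the mice of that time were fitted and 0 with the covariate. Their median log2 fold changes were -0.32 and -0.37 at 20 and 34 weeks and 0.55 in CD mice with time, close to the -0.36, -0.44 and 0.55 of the complex I subunits. The difference between complex I and the other complexes was not tested. The largest falls per time were those of Sdha of complex II (-0.69 ± 0.13 at 20 weeks, adjusted p = 4.27e-05), Uqcrq of complex III (-0.76 ± 0.17 at 34 weeks, adjusted p = 0.000771), Cox8a of complex IV (-0.66 ± 0.14 at 34 weeks, adjusted p = 0.000606) and Atp5c1 of complex V (-0.74 ± 0.14 at 20 weeks, adjusted p = 5.24e-05). Cox7a1, a muscle-type complex IV subunit, was the gene of these lists that was higher in HFD mice, by 1.40 ± 0.24 (adjusted p = 3.78e-05) at 8 and 1.12 ± 0.24 (adjusted p = 0.000184) at 20 weeks.

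Marker genes of other cells moved with the diet as well. Of all genes tested 29.8%, 38.3% and 27.5% were higher and 15.1%, 18.7% and 15.7% lower in HFD mice at 8, 20 and 34 weeks. In CD mice at 34 against 8 weeks 40.1% were higher and 24.6% lower. Of 12 macrophage markers 8, 9 and 11 were higher in HFD mice at 8, 20 and 34 weeks, and 10 were higher in CD mice at 34 against 8 weeks, when the complex I subunits rose. Of 6 endothelial markers 6, 6 and 5 were higher in HFD mice. Of 8 adipocyte markers 1, 6 and 7 were lower at the 3 times, 1 was higher at 8 and at 20 weeks, and 3 were lower in CD mice at 34 against 8 weeks. All 12 macrophage markers had reads in every mouse, and 1 of them was lower in HFD mice at 20 weeks. Of 4 progenitor and fibroblast markers 3, 4 and 1 were higher in HFD mice, and of 3 mesothelial markers 2, 0 and 0. The 1 of 8 adipocyte markers lower at 8 weeks and the 1 of 4 progenitor markers higher at 34 weeks are near the shares of all genes. The plot of subunit means against marker sums shows these values for each mouse. Their part in the complex I differences was not tested beyond the covariate.

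**Figure D4:**
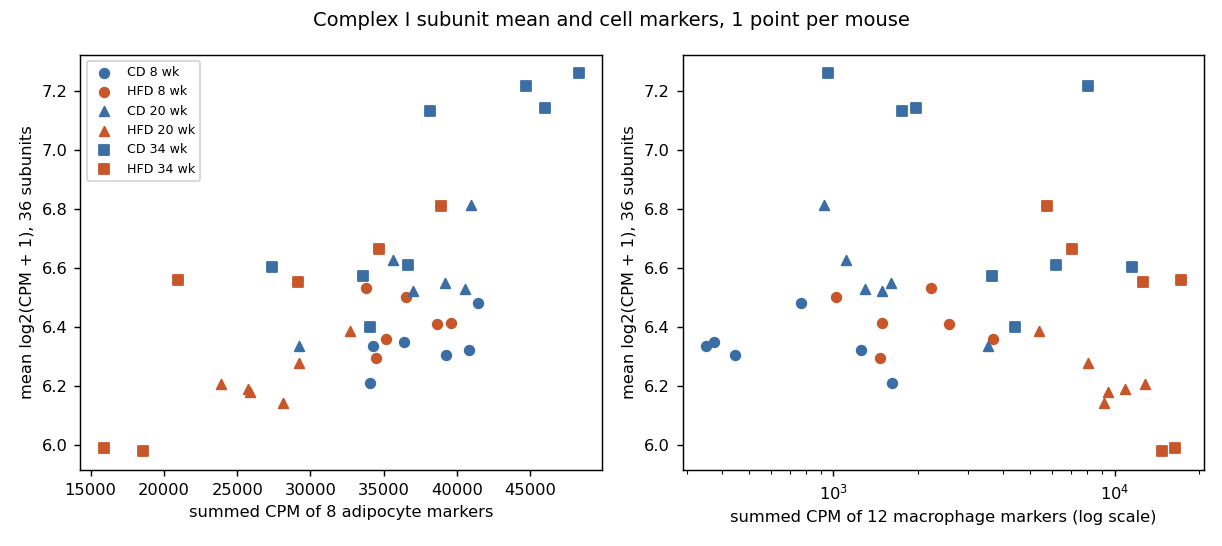
Mean log2(CPM + 1) of the 36 complex I subunits against the summed CPM of 8 adipocyte markers (left) and of 12 macrophage markers (right, log axis), with 1 point per mouse (blue CD, orange HFD; circles 8, triangles 20, squares 34 weeks). The 4 CD mice at 34 weeks with means of 7.13 or more, picked by those means, have adipocyte sums of 38149 to 48286 CPM and macrophage sums of 955.2 to 8041 CPM.

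The length of annotated exon was compared because many accessory subunits are small. In CD mice at 34 against 8 weeks, the 9 subunits with under 1000 bases of annotated exon had a median log2 fold change of 0.61 and the 27 longer ones of 0.49. Over all genes with a length the medians were 0.66 for 193 genes under 1000 bases and 0.13 for 10119 longer ones. By this length the longer subunits were above the longer genes as a whole, and the short ones were near the short genes. The length joins all annotated exons, so that a gene with a short main transcript can count as long. Ndufab1 counted as long with 6883 bases and Ndufb2 with 5628. The comparison therefore cannot set the subunits apart from genes with short transcripts. For HFD against CD mice at 20 weeks the medians were -0.36 and -0.39 for short and long subunits, and 0.02 and 0.14 for short and long genes. At 34 weeks they were -0.45 and -0.43 for the subunits, and -0.23 and 0.08 for all genes.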

How the data were processed

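The authors aligned the reads to mm10 with STAR, counted reads per gene over its merged exons with featureCounts (Subread 1.5.1, GENCODE vM2) and deposited CPM values, 1 column per mouse with its 3 technical replicates merged. Each column of the deposited CPM sums to 1000000, with no TMM factor visible, although the methods name TMM. All values were whole multiples of 1 read within 0.1 reads, and these reads were used for edgeR 4.0.16 and DESeq2 1.42.0 as alternatives. Here log2(CPM + 1) of the 10343 genes with a mean above 2 was fitted over the 6 groups together with limma 3.58.1 (trend, 32 residual degrees of freedom, two-sided, Benjamini-Hochberg over the genes tested, threshold 0.05). Interaction terms tested changes of the diet difference. The fit was tested on simulated data. The mice are taken as separate animals from the labels, and no pair of the 103 within groups differed by less than the sampling noise. The members and gene lists were chosen with earlier results of these data known.

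Alternatives were TMM and median-of-ratios scaling, pseudocounts of 0.1 and 5, no filter, edgeR, DESeq2, fits of the times compared only, a fold change of 1.5 required, array weights, the mouse number as a block, each mouse left out and the macrophage markers as a covariate. The values of 1 member are not reported here, while counts and medians include it. Named genes are the core subunits, the 3 largest called falls and rises per diet comparison, called members against their class, Ndufa4, Ndufa4l2, all assembly factors, and the 5 members with the smallest adjusted p per interaction, with the 2 largest changes of a pathway list as examples. Exon lengths came from GENCODE vM21 and promoters from RefSeq (GRCm38.p6).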

Additional observations from a re-analysis of the deposited data

Results flagged for a closer look

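In 156 groups of mice tested for a value far from the rest, 7 values of members stood apart, about the share of 1 in 20 that chance gives. In CD mice at 8 weeks, mouse 4 was highest for Ndufb6, with 69.56 CPM against 56.2 CPM in the next mouse, and for Ndufa4l2, with 1.111 against 0.408 CPM. In HFD mice, mouse 5 at 8 weeks was lowest for Ndufa7, with 110.4 against 119.4 CPM, and mouse 4 at 20 weeks was highest for it, with 112.7 against 97.5 CPM. At 34 weeks CD mouse 6 was highest for Ndufaf1 (39.28 against 30.1 CPM) and Ndufaf3 (35.72 against 26.1 CPM), and HFD mouse 6 for Ndufaf4 (19.394 against 14.3 CPM).

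The diet effect (HFD minus CD, log2) differed between times by an interaction test in 14 values of named members. Between 8 and 20 weeks it shifted by -0.603 in Ndufa7. Between 8 and 34 weeks it shifted by -0.876 in Ndufa11, -0.706 in Ndufa12, -0.790 in Ndufa7, -0.734 in Ndufa8, -0.975 in Ndufab1, -0.685 in Ndufb10, -0.875 in Ndufb6, -0.612 in Ndufb9 and -0.478 in Ndufv2. Among the assembly factors the shift was -0.448 in Ndufaf1, -0.465 in Ndufaf3, -0.502 in Ndufaf4 and -0.661 in Ndufaf6. The adjusted p ran from 0.000812 (Ndufa11) to 0.0477 (Ndufv2), with limma.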

How the results depend on the processing

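With TMM, median-of-ratios scaling, edgeR and DESeq2 1 subunit was higher at 8 weeks in each, and the median log2 fold change of the subunits was -0.056, -0.064, -0.059 and -0.048 at 8 weeks and -0.573, -0.526, -0.576 and -0.538 at 20 weeks. In each of these fits 5 assembly factors were lower at 20 and 5 at 34 weeks, and 3 were higher in CD mice over time with TMM, median-of-ratios scaling and edgeR. In HFD mice at 20 against 8 weeks 2 subunits were lower with TMM, edgeR and DESeq2, and DESeq2 gave 2 for the diet difference at 20 against 8 weeks. Without a filter on low values these last 2 comparisons gave 0 and 0.

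With only the times compared in the fit, 11 subunits were higher and 3 lower at 8 weeks, 5 were lower at 34 weeks, 18 were lower in HFD and 12 higher in CD mice at 20 against 8 weeks, and 30 and 12 had a changed diet difference at 20 and at 34 against 8 weeks, with 3 and 0 assembly factors lower at 20 and 34 weeks. Array weights gave 12 higher and 3 lower at 8 weeks, 9 lower at 34 weeks, 3 higher in HFD mice at 34 against 8 weeks, 24 lower in HFD and 6 higher in CD mice at 20 against 8 weeks, 32 with a changed diet difference at 20 weeks, and 5 assembly factors lower at 20 weeks. Requiring a change of 1.5 times left 0 higher at 8 weeks, 2 and 5 lower at 20 and 34 weeks, 17 higher in CD mice at 34 weeks, 0 lower in HFD mice at 20 weeks, and 0 and 2 assembly factors lower at 34 weeks and higher in CD mice.

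With the macrophage markers as a covariate, 17 subunits were higher at 8 weeks and 0 lower at 20 and 34 weeks, 10 were higher in HFD mice at 34 against 8 weeks, 0 lower in HFD and 17 higher in CD mice at 20 against 8 weeks, 0 had a changed diet difference at 20 weeks, and 0 assembly factors were lower at 34 weeks. Medians of the subunits became 0.319, 0.091 and -0.169 at 8, 20 and 34 weeks (-0.235 at 34 weeks with array weights, against -0.439), and 0.913 in CD and 0.367 in HFD mice at 34 against 8 weeks. The sign turned at 20 weeks for Ndufa12 (0.078), Ndufa4 (0.057), Ndufa5 (0.018), Ndufs1 (0.196), Ndufs3 (0.077) and Ndufv1 (0.134), and at 8 weeks for Ndufb9 (0.354). The causes were not tested, and the share of all genes called in these fits was not counted.

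The mice were not treated as paired by number, since the labels state no pairing. Deviations of same-numbered CD and HFD mice correlated from -0.509 to 0.529. With the number as a replicate block 22, 36 and 32 subunits were called at 20 weeks, at 34 weeks and in CD mice over time, 3 were lower in HFD mice at 20 against 8 weeks, 2 had a changed diet difference at 20 weeks and 1 assembly factor was lower at 20 weeks.

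Leaving out each mouse gave 2 to 5 subunits higher and 0 lower at 8 weeks (5 without HFD mouse 2 at 8, CD mouse 2 at 34 or HFD mouse 3 at 34 weeks), 16 to 24 lower at 20 weeks and 16 to 34 lower at 34 weeks (16 without HFD mouse 2 or 3). In CD mice 29 to 32 were higher at 34 and 0 at 20 against 8 weeks, and in HFD mice 0 to 1 higher at 34 (1 without HFD mouse 2 at 34 weeks) and 0 to 3 lower at 20 against 8 weeks. The diet difference changed in 0 to 4 subunits at 20 and 15 to 25 at 34 against 8 weeks. Assembly factors gave 0 to 3 lower at 20 weeks (3 without HFD mouse 4, 1 without CD mouse 1 at 20 or HFD mouse 3 at 34 weeks), 2 to 5 lower at 34 weeks (5 without HFD mouse 6) and 4 to 7 higher in CD mice. Subunit medians ran from 0.028 to 0.074, -0.422 to -0.307 and -0.513 to -0.341 at 8, 20 and 34 weeks, and from 0.483 to 0.611 in CD and -0.085 to 0.075 in HFD mice over time. Of the counts at 20 against 8 weeks, that of HFD mice was 0 without HFD mouse 1, 3, 4 or 6 at 8 or HFD mouse 1, 2, 3, 5 or 6 at 20 weeks, 3 without HFD mouse 4 at 20 weeks, and 2 without CD mouse 2, 3, 5, 6 or 7 or HFD mouse 2, 3 or 6 at 34 weeks. That of the diet difference was 4 without CD mouse 1 and 2 without HFD mouse 4 at 20 weeks, 2 without CD mouse 5 at 34 weeks, 1 without CD mouse 4 or HFD mouse 5 at 8 weeks, and 0 without any other mouse at 8 or 20 weeks or without CD mouse 1 or HFD mouse 5 at 34 weeks.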

Other observations

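Of 16 regulators of nuclear respiratory genes tested, 7 were lower (43.8%, against 15.1% of all genes) and 1 higher (6.25%, against 29.8%) in HFD mice at 8 weeks. At 20 weeks 4 were lower (25%, against 18.7%) and 2 higher (12.5%, against 38.3%), and at 34 weeks 2 were lower (12.5%, against 15.7%) and 4 higher (25%, against 27.5%). In CD mice at 34 against 8 weeks 9 were lower (56.2%, against 24.6%) and 4 higher (25%, against 40.1%). Ppargc1a, a coactivator of mitochondrial biogenesis, had 8.34, 10.2 and 12.7 CPM (lowest, median and highest) in CD and 3.55, 5.10 and 8.03 CPM in HFD mice at 8 weeks, and fell by 0.84 ± 0.21 (SE, adjusted p = 0.00166). It fell by 0.77 ± 0.21 (adjusted p = 0.00192) at 20 weeks and had a log2 fold change of -0.12 ± 0.19 (adjusted p = 0.634) at 34 weeks. In CD mice it fell by 1.20 ± 0.19 (adjusted p = 3.51e-06) from 8 to 34 weeks, while 30 of 36 complex I subunits rose. Nrip1, a corepressor of oxidative genes, fell by 1.40 ± 0.19 (adjusted p = 3.18e-07) in the same comparison.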
